A study of Homo sapiens with 2 samples.

Results

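The p53 targets and apoptosis regulators described here are 45 human genes, chosen by name, of 19412 genes with a probe that names 1 gene. They were read by 61 of 25650 such probes. By role they comprise 29 targets and regulators of p53, 11 members of the BCL2 family and 5 caspases and apoptosome proteins. The cells were A375SM, a human melanoma line of high metastatic capacity, and their RNA was read on Cy5-labelled microarrays of 1 colour. One derivative had been transduced with lentivirus for an shRNA directed at NFAT1 (gene NFATC2), a transcription factor that calcineurin activates when calcium rises, and the control line with lentivirus for a non-targeting (NT) shRNA. Both lines were grown in the same medium with serum and kept as sorted pools, each made of the 50% of cells brightest for GFP. Triplicate hybridization was stated, but each probe has 1 combined intensity and 1 error per line, so the spread between replicates could not be examined. Values are normalized intensities on a linear scale, given first for the line labelled NFAT1-shRNA and then for the NT-shRNA line, and every ratio is a log2 ratio of the former over the latter. A probe was detected where its deposited detection p-value was under 0.01, and the brightest probe of a gene represented it. A value after ± is this deposited error, whose kind (SD or SE) is not stated.

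p53 is a transcription factor that is kept scarce by the ubiquitin ligase MDM2 and its relative MDM4, and that accumulates after DNA damage and other stress. Its targets halt the cell cycle, repair DNA, buffer metabolism and prime cells for death. The BCL2 family sets whether the mitochondrial outer membrane is opened: BH3-only proteins activate the effectors BAX and BAK1 directly or by occupying the anti-apoptotic members, and released cytochrome c then assembles APAF1 and caspase-9 into the apoptosome. Death receptors reach the same executioners through caspase-8.

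The array gave no call for the transcript that the shRNA targets. The brighter NFATC2 probe read 279 ± 15.7 in the line labelled NFAT1-shRNA and 199 ± 15.2 in the line labelled NT-shRNA. In log2 units the authors' deposited table had 0.12, and the adjusted p was 0.819. The dimmer NFATC2 probe, detected in neither line, read 41.6 ± 9.55 and 57.8 ± 10.6, with -0.23 (interval -1.06 to 0.60) in the authors' deposited table. Every direction below is therefore that between the lines as labelled. Melanocytic lineage markers were detected for 7 of 8 genes in both lines, all but PAX3. Of these 8, 2 rose and 6 were not called: TYR (tyrosinase, which starts melanin production) read 289 ± 19.0 against 74.6 ± 7.60, with a ratio of 1.63 in the authors' deposited table (adjusted p 1.20e-21). DCT, another melanin enzyme, read 799.8 ± 65.9 against 313 ± 33.9, with a ratio of 1.01 in the authors' deposited table (adjusted p 5.37e-05). Both ratios exceeded that of every called member. The median ratio of the 8 markers was 0.07, with 5 above 0 and 3 below. The lowest was that of MITF, at -0.50, whose other probe with a ratio had 0.60. The summed intensity of the 8 markers was 3528 and 2303. Marker sums in this paragraph are not centred, so they carry the shift between the lines. For genes with a ratio that shift was 1.23-fold at the median, with NFAT1-shRNA the brighter line. Of 5 keratinocyte markers KRT14 and KRT10 were detected in both lines, and of 5 fibroblast markers LUM was detected in both and COL1A2 in the line labelled NT-shRNA only. The summed intensity of the 5 fibroblast markers was 8203 in the line labelled NFAT1-shRNA and 1596 in the NT-shRNA line. The 2 fibroblast markers with a ratio, LUM (0.08 in the authors' deposited table) and COL1A1 (-0.05, detected in neither line), were not called. Only LUM of these 5 was detected in the line labelled NFAT1-shRNA, and 3 were detected in neither line. The fibroblast sums therefore include undetected signals and do not measure fibroblast content. For the 5 keratinocyte markers the sums were 1654 and 1345. No probe representing 5 leukocyte or 4 endothelial markers was detected. The part of these levels in the results was not tested.

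Of the 45 members, 31 had a log2 ratio in the authors' deposited table, and 5 of these (16.1%) changed. CDKN1A, BTG2 and TRIAP1 rose and GADD45B and BIK fell in the line labelled NFAT1-shRNA. A gene was called changed at a Benjamini-Hochberg adjusted p under 0.05, computed over all 9516 genes with a ratio from the p-values that the authors' deposited table lists. Of all genes with a ratio 7.55% were called, 3.35% higher and 4.19% lower. By class, 4 of 20 p53 targets with a ratio were called, 1 of 7 BCL2 family members and 0 of 4 caspase and apoptosome genes. Before adjustment, 11 of the 31 members had a p-value under 0.05 in the authors' deposited table (9 p53 targets, BIK and XIAP), against 19.2% of all genes. The 95% interval drawn from the errors left out 0 for 11 members, against 20.5% of all genes. In bulk RNA, fewer cells expressing a gene and less RNA per cell cannot be told apart.

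Printed here are the 250 bases before the transcription start of CDKN1A, BTG2, TRIAP1 and GADD45B, so that the regions in front of the genes that rose and of one that fell can be read side by side. They come from the set of RefSeq promoters used here (build GRCh38.p14) and run 5′ to 3′ on the gene's strand. That set held promoters for 37 of the 45 members. It held none for BIK, the other member that fell. Capitals mark the core of NFAT binding sites, GGAAA, found on either strand (TTTCC on the other).
CDKN1A, chr6:36678464-36678713, plus strand: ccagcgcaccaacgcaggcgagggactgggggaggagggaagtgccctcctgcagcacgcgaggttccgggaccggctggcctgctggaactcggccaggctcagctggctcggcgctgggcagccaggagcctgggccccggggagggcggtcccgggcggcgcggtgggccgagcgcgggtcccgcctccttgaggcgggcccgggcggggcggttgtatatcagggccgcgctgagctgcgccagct
BTG2, chr1:203305269-203305518, plus strand: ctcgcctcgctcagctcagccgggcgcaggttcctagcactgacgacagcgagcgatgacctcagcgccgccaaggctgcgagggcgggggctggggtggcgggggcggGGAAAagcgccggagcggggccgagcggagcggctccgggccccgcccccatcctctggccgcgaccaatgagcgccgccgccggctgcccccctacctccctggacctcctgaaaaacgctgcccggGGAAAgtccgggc
TRIAP1, chr12:120446385-120446634, minus strand: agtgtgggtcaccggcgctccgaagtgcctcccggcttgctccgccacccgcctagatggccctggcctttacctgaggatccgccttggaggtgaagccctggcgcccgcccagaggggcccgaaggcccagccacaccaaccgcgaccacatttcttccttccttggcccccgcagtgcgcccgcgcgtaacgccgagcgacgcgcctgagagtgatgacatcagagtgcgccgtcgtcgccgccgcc
GADD45B, chr19:2475877-2476126, plus strand: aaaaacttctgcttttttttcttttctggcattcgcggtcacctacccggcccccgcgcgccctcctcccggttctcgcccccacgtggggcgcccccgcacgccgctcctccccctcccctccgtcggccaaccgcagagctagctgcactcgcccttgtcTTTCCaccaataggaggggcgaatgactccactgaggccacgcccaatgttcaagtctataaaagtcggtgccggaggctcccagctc
BTG2 held 2 matches, the first bases of which lay 141 and 13 bases before the start, and GADD45B held 1, at 88 bases before the start. CDKN1A and TRIAP1 held none in this window. Of all 35116 promoter windows of this length, 55.6% held at least 1 match and 22.4% at least 2, so these letters are common. Of the 62 member windows, 46.8% held at least 1 and 21.0% at least 2. The consensus of the p53 half-site, searched by exact match on both strands, was in none of these 4 windows. It was in 9 of 62 member windows (14.5%), 1 window each of CASP9, CASP8, PLK2, BAK1, SESN1, FAS, EI24, AEN and FDXR, against 5.57% of all windows. Windows of 1 gene can overlap, and no factor's binding was measured. Bases outside these windows were not searched, so a window without a match does not show that its gene lacks a site.

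Among the genes of the cell cycle and checkpoint role, 2 of 8 with a ratio rose, 1 fell and 5 were not called. CDKN1A encodes p21, the inhibitor of cyclin-dependent kinases through which p53 halts the cycle. It read 1231 ± 55.4 in the line labelled NFAT1-shRNA and 529 ± 62.4 in the NT-shRNA line. Its ratio (log2) was 0.91 in the authors' deposited table, or 1.88-fold (95% interval 0.55 to 1.27 by the errors), and the adjusted p was 9.18e-06. BTG2, an antiproliferative adaptor of the mRNA deadenylation machinery, read 450.2 ± 31.9 against 182 ± 14.1. On the log2 scale its value in the authors' deposited table was 0.95, or 1.93-fold (interval 0.65 to 1.24), and the adjusted p was 1.61e-07. For both genes the difference was many times the deposited errors, and both were called higher under all 10 settings of scale, probe choice and filter. Both have 1 probe, detected in both lines, so the settings of probe choice and filter could not change their ratios. Their adjusted p-values ran from 2.71e-09 to 3.29e-05 for CDKN1A and from 1.57e-15 to 1.79e-07 for BTG2. Both fold changes were under 2-fold, and 1.26% of all genes were called and at least 2-fold.

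The GADD45 genes encode stress sensors that bind p21, PCNA and a MAP kinase kinase kinase, and 2 of the 3 had a ratio, of opposite signs. GADD45B read 536 ± 27.2 in the line labelled NFAT1-shRNA and 569 ± 32.1 in the NT-shRNA line. In the authors' deposited table the log2 ratio stood at -0.42, or 1.33-fold lower (interval -0.63 to -0.20), and the adjusted p was 0.0350. These 2 intensities overlap within their errors, and the fall is one relative to the median gene. Over genes with a ratio, the intensities of the line labelled NFAT1-shRNA stood 1.23-fold higher at the median (0.30 on the log2 scale), a shift that the ratio in the authors' deposited table does not carry. GADD45A read 943 ± 55.2 against 532 ± 66.8. The ratio of 0.51 that the authors' deposited table lists spanned 0.12 to 0.91 (adjusted p 0.0688), so it was not called. It was called with an offset of 50 added to both intensities (adjusted p 0.0386) and on the plain quotient of the intensities, without centring on the median, its adjusted p running from 0.000592 to 0.0892 over all settings. The intervals of GADD45A and GADD45B did not overlap. GADD45G, at 0.967 and 4.15, was undetected in both lines and had no ratio.

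The polo-like kinases gave no call. PLK2, which acts in centriole duplication and stress responses, read 2169 ± 129.8 in the line labelled NFAT1-shRNA and 2479 ± 196 in the NT-shRNA line. In log2 units the authors' deposited table had -0.44 (interval -0.72 to -0.16), and the adjusted p was 0.111. Of 10 settings 3 called it lower (adjusted p from 0.0102 to 0.339). PLK3, another stress-responsive kinase, read 179.9 ± 16.8 against 131 ± 21.7. Its ratio (log2) was 0.16 in the authors' deposited table (interval -0.38 to 0.70).

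Cyclin G1 (CCNG1), a p53 target that brings a phosphatase to MDM2, gave unequal values on its probes. The brighter probe read 7182 ± 342 against 5196 ± 706, with a ratio of 0.25 in the authors' deposited table (interval -0.15 to 0.66, adjusted p 0.555). The dimmer probe read 149 ± 13.6 in the line labelled NFAT1-shRNA and 60.5 ± 7.85 in the NT-shRNA line, where it was not detected. Against its own NT-shRNA value, after removal of the median shift, it was 1.99-fold higher. The log2 ratio of this probe in the authors' deposited table was 1.00 (interval 0.55 to 1.45, adjusted p 4.46e-05 over all probes). The probe was singled out after its values were seen. With the mean over both probes CCNG1 was called higher, at 0.63 and an adjusted p of 0.000362, while its adjusted p over all settings reached 0.739. The mean over probes combined p-values as if probes were independent, although they read the same RNA, so that p can be too small. Cyclin G2 (CCNG2) read 36.5 and 20.8 on its brighter probe and SERTAD1, a regulator of CDK4 and E2F activity, 12.7 and 14.4. Neither gene was detected in either line.

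**Figure D1:**
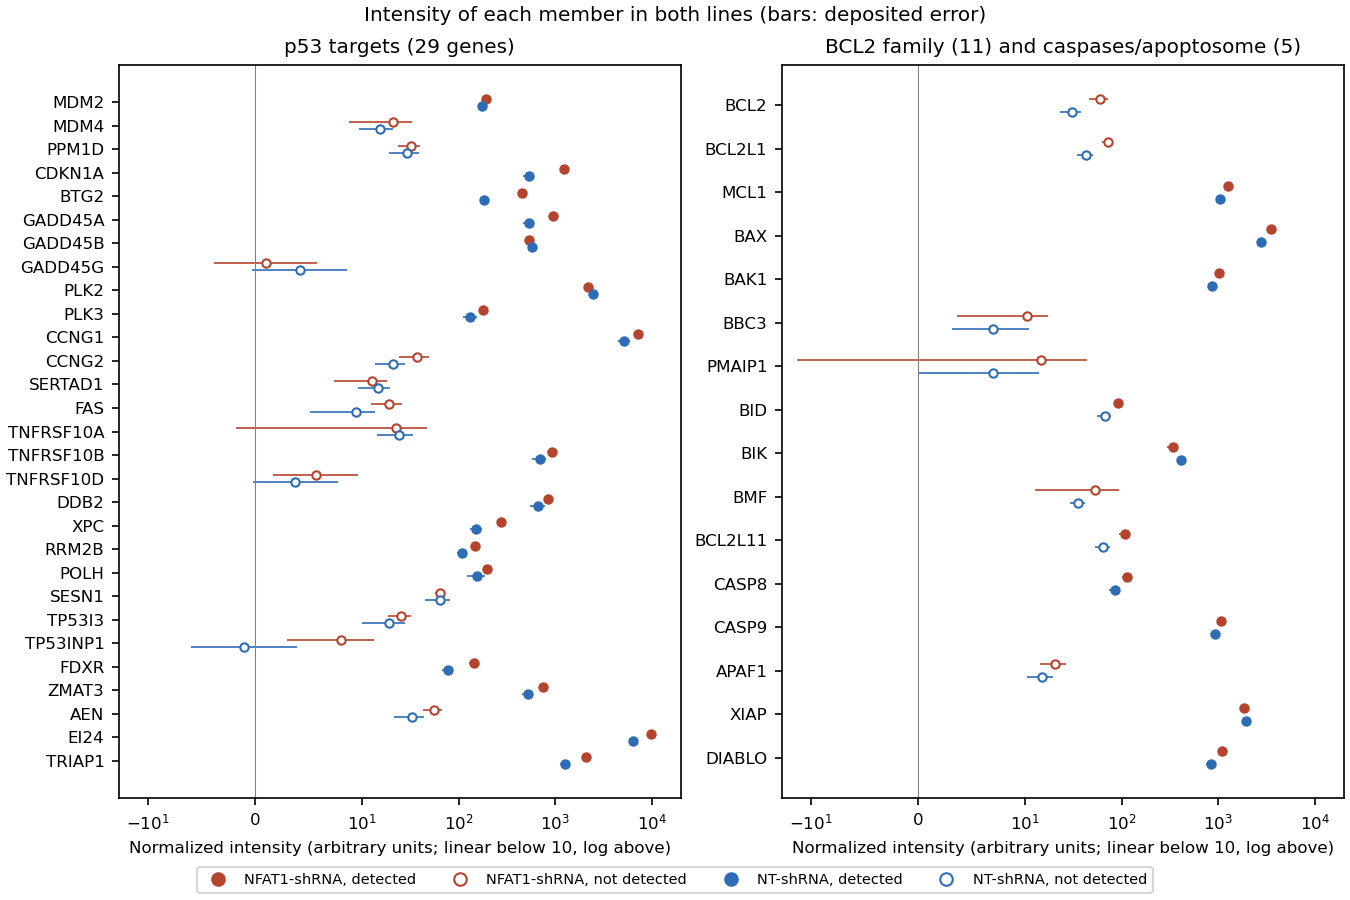
Normalized intensity of the representative probe of each of the 45 members (x axis, linear below 10 and logarithmic above) in the line labelled NFAT1-shRNA and in the NT-shRNA line, with bars for the deposited error and open points for signals with a detection p-value of 0.01 or more. CDKN1A (1231 and 529) and BTG2 (450.2 and 182) are widely separated, while GADD45B (536 and 569) and 18 members detected in neither line are not; levels of different probes are not comparable.

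The p53 inhibitors and feedback genes gave no call. MDM2, both a target of p53 and its main inhibitor, read 192 ± 13.4 in the line labelled NFAT1-shRNA and 173 ± 12.1 in the NT-shRNA line. On the log2 scale its value in the authors' deposited table was -0.22 (interval -0.50 to 0.06), and the adjusted p was 0.617. On the plain quotient its sign turned, to 0.15. MDM4, the relative of MDM2 that masks the activation domain of p53, read 20.6 and 15.3 on its brighter probe, and PPM1D, a phosphatase that ends the p53 response, read 31.6 and 29.1. Both were undetected in both lines.

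No gene of the DNA repair and nucleotide role was called, although all 4 were detected in both lines. XPC, which recognises distorted DNA in nucleotide excision repair, read 271 ± 19.4 against 152 ± 21.8 on its brightest probe. Its log2 ratios in the authors' deposited table were 0.49, 0.22 and 0.20 on its 3 probes, and the brightest spanned 0.04 to 0.94 (adjusted p 0.230). DDB2, the other damage sensor of that pathway, read 832 ± 45.7 against 665 ± 112.8 and had a ratio of 0.04 in the authors' deposited table (interval -0.47 to 0.54). RRM2B, the p53-inducible subunit of ribonucleotide reductase, read 147.6 ± 11.0 against 107.6 ± 10.7 and had a ratio of 0.12 in the authors' deposited table (interval -0.23 to 0.47). The probes of POLH, a polymerase that copies past ultraviolet damage, disagreed in sign. They stood at 0.05 and -0.63 (log2 ratio) in the authors' deposited table, and both intervals included 0.

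Of 8 targets in redox, stress and other roles, 1 rose. TRIAP1, a small mitochondrial protein that helps move phospholipids and restrains apoptosis, read 2092 ± 133 in the line labelled NFAT1-shRNA and 1256 ± 123.8 in the NT-shRNA line. In the authors' deposited table the log2 ratio stood at 0.47, or 1.38-fold (interval 0.14 to 0.80), and the adjusted p was 0.0188. This call was the least firm among those that rose: it was lost on the centred quotient of the intensities (adjusted p 0.0847) and with p-values from the deposited errors (adjusted p 0.0611), and its adjusted p over all settings began at 0.000291. FDXR, the reductase that feeds electrons to mitochondrial ferredoxins, read 144.5 ± 15.7 against 77.2 ± 10.2. The ratio of 0.58 that the authors' deposited table lists was larger than that of TRIAP1, but its interval of 0.09 to 1.06 was wider and its adjusted p was 0.166. EI24, a protein of the endoplasmic reticulum linked to autophagy, read 9791 ± 782 against 6371 ± 589. In log2 units the authors' deposited table had 0.40 (interval 0.05 to 0.74, adjusted p 0.122). The RNA-binding protein ZMAT3 read 746 ± 46.8 against 521 ± 67.4 and had a ratio of 0.21 in the authors' deposited table (interval -0.20 to 0.61). SESN1, a sestrin that restrains mTORC1, read 64.4 and 63.1, and the nuclease AEN read 54.7 and 32.6. The quinone oxidoreductase TP53I3 read 25.4 and 18.9, and TP53INP1, a stress protein that assists p53, read 8.04 and -1.02. None of SESN1, AEN, TP53I3 and TP53INP1 was detected in either line.

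The death receptors were mostly undetected. TNFRSF10B, a receptor for the death ligand TRAIL, read 928 ± 102 in the line labelled NFAT1-shRNA and 691 ± 112.9 in the NT-shRNA line on its brighter probe. Its ratio (log2) was 0.13 in the authors' deposited table (interval -0.43 to 0.69), and the adjusted p was 0.909. The other TRAIL death receptor, TNFRSF10A, read 22.5 and 23.8, the decoy receptor TNFRSF10D 5.64 and 3.75 on its brighter probe, and FAS, the receptor for FAS ligand, 18.9 and 9.37. These 3 were detected in neither line and had no ratio.

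**Figure D2:**
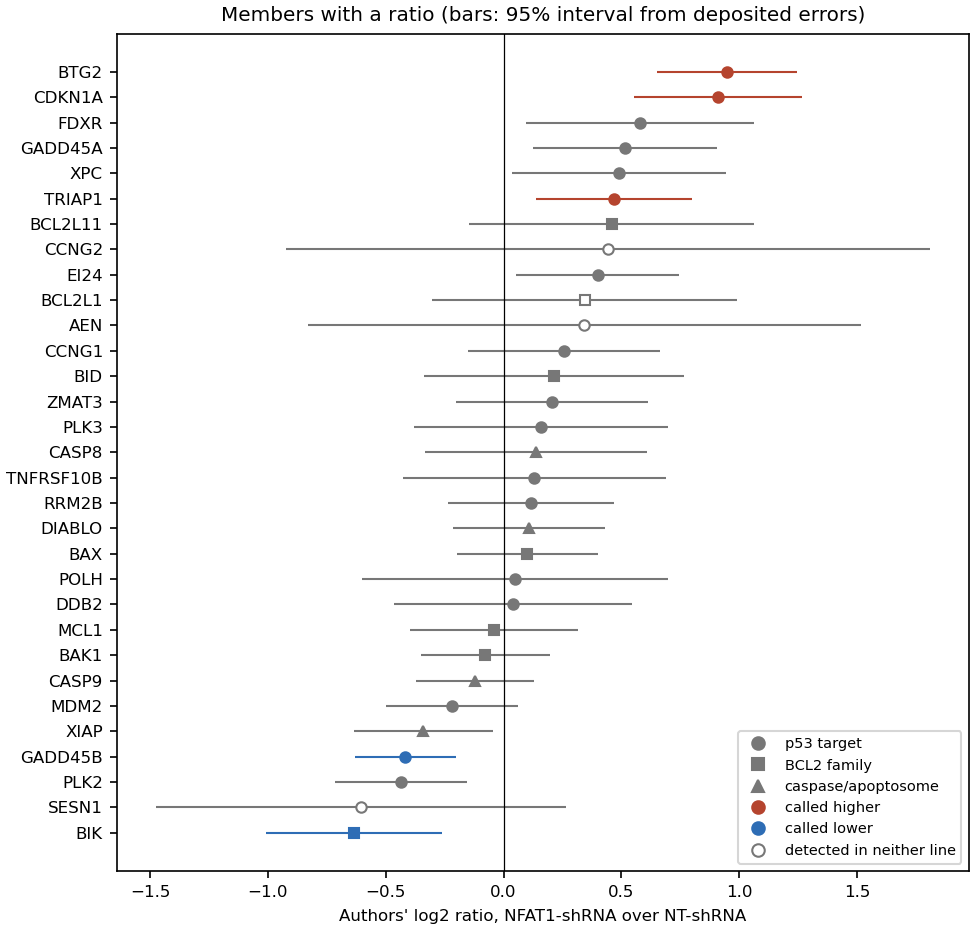
Log2 ratio (NFAT1-shRNA over NT-shRNA) from the authors' deposited table (x axis) for the 31 members with a ratio, in order of size, with bars for the 95% interval from the deposited errors; marker shape gives the class, colour the call and an open marker a probe detected in neither line. BTG2 at 0.95 and CDKN1A at 0.91 stand at the top and BIK at -0.63 at the bottom; FDXR at 0.58, GADD45A at 0.51 and XPC at 0.49 lie above TRIAP1 at 0.47 without a call.

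In the BCL2 family 1 of 7 members with a ratio fell and none rose. BIK, a BH3-only protein of the endoplasmic reticulum, read 337 ± 40.1 in the line labelled NFAT1-shRNA and 408 ± 23.3 in the NT-shRNA line. On the log2 scale its value in the authors' deposited table was -0.63, or 1.55-fold lower (interval -1.01 to -0.26), and the adjusted p was 0.0380. BIK has 1 probe, detected in both lines, so the settings of probe choice and filter could not change its ratio. The call held under 9 of 10 settings and was lost on the plain quotient, where the value was -0.28 (adjusted p 0.298, with a range over all settings from 0.0161). The same setting took the value of GADD45B to -0.08 (adjusted p 0.618, with a range over all settings from 0.00378) and ended its call.

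Of the other BH3-only genes, BCL2L11 and BID were detected in the line labelled NFAT1-shRNA only. BCL2L11 (BIM), a strong activator of BAX and BAK1, read 106.8 ± 13.3 against 63.6 ± 11.1 on its brightest probe. The gene was not called (adjusted p 0.556). Its 3 probes stood at 0.46, 0.38 and 0.23 (log2 ratio) in the authors' deposited table, all with intervals that included 0. BID, which caspase-8 cleaves to link death receptors to mitochondria, read 91.7 ± 9.45 against 66.5 ± 11.0 and was not called (interval -0.34 to 0.77, adjusted p 0.892). BBC3 (PUMA) and PMAIP1 (NOXA), the classical BH3-only targets of p53, read 10.4 and 7.02 for BBC3 and 14.7 and 6.98 for PMAIP1. BMF, which senses loss of anchorage, read 53.1 and 35.3 on its brighter probe. BBC3, PMAIP1 and BMF were detected in neither line.

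Effectors and anti-apoptotic members gave no call. BAX, which is a p53 target too, read 3492 ± 238 in the line labelled NFAT1-shRNA and 2754 ± 223 in the NT-shRNA line on its brighter probe, and 1559 ± 82.0 against 1478 ± 67.1 on the other. The log2 ratios in the authors' deposited table were 0.10 and -0.20, so the probes differed in sign. The brighter probe spanned -0.20 to 0.40. The other spanned -0.40 to -0.00757, which left out 0, with an adjusted p of 0.357 over all probes. BAK1 read 1018 ± 60.9 against 868 ± 66.0, a ratio of -0.08 in the authors' deposited table (interval -0.35 to 0.20). MCL1, the short-lived anti-apoptotic member, read 1248 ± 98.1 against 1049 ± 103.8, a ratio of -0.04 in the authors' deposited table (interval -0.40 to 0.32). BCL2L1, which encodes BCL-XL, read 71.3 and 42.1, and BCL2 read 59.1 and 30.2 on its brighter probe. Neither BCL2L1 nor BCL2 was detected in either line.

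None of the caspase and apoptosome genes was called. CASP8, the initiator caspase of death receptors, read 114 ± 13.8 in the line labelled NFAT1-shRNA and 84.0 ± 9.63 in the NT-shRNA line, a ratio of 0.14 in the authors' deposited table (interval -0.33 to 0.61). CASP9, the initiator of the apoptosome, read 1055 ± 71.1 against 926 ± 53.1, a ratio of -0.12 in the authors' deposited table (interval -0.37 to 0.13). APAF1, its scaffold, read 20.4 and 14.9, undetected in both lines. XIAP, which inhibits caspases, read 1828 ± 132 against 1932 ± 145 on its detected probe. In the authors' deposited table the log2 ratio stood at -0.34 (interval -0.64 to -0.05), but its adjusted p was 0.238. DIABLO, the mitochondrial antagonist of XIAP, read 1106 ± 63.9 against 833 ± 81.5 on its brighter probe. Its probes stood at 0.11 and -0.08 (log2 ratio) in the authors' deposited table, both with intervals that included 0.

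**Figure D3:**
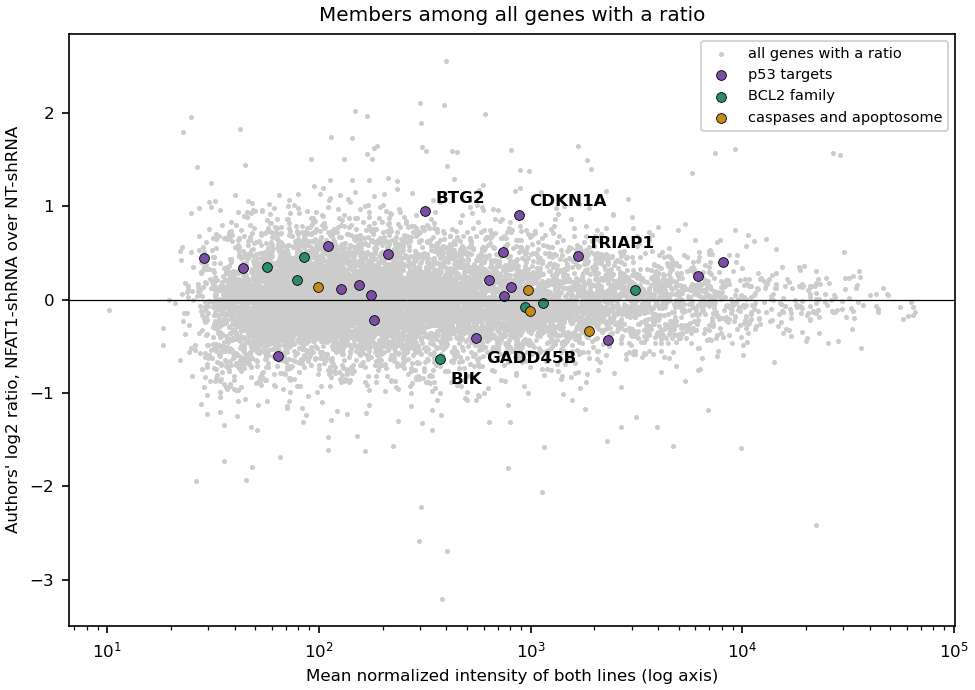
Log2 ratio (NFAT1-shRNA over NT-shRNA) from the authors' deposited table (y axis) against the mean normalized intensity of both lines (x axis, logarithmic), with grey points for all 9516 genes with a ratio and coloured points for the 31 members. Of the called members, BTG2, CDKN1A and TRIAP1 have positive ratios and BIK and GADD45B negative ones. FDXR, GADD45A and XPC lie above TRIAP1, and SESN1 and PLK2 lie below GADD45B, all without a call.

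Taken as classes, the p53 targets with a ratio had a median log2 ratio of 0.23, with 16 above 0 and 4 below. The 23 other p53 pathway genes with a ratio, described further on, had a median of -0.11, with 9 above 0 and 14 below. The BCL2 family had a median of 0.10, with 4 above 0 and 3 below, and the caspase and apoptosome genes of -0.01, with 2 on each side. The median of all genes with a ratio was -0.02, and 48% of them were above 0. The p53 class median ranged from 0.14 with an offset of 50 to 0.25 with the mean over probes among the centred scales, where the median of all genes lay between -0.02 and 0. The BCL2 median turned negative among members detected in both lines (-0.06), among those with a mean intensity over 100 (-0.06) and with the mean over probes (-0.04). These medians describe members chosen with results of these data known, and the 14 members without a ratio are not in them.

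Detection split the module. Of the 45 members, 25 (55.6%) were detected in both lines, 2 in the line labelled NFAT1-shRNA only and 18 (40.0%) in neither, against 35.3% of all genes in both lines and 60.1% in neither. By role, the undetected members were 3 of 4 death receptors, 2 of 3 p53 inhibitors, 2 of 3 anti-apoptotic genes, 3 of 6 BH3-only genes, 4 of 8 targets in redox, stress and other roles, 3 of 10 cell cycle genes and APAF1. Of the 18, SESN1, CCNG2, AEN and BCL2L1 had a ratio in the authors' deposited table, none of them called. A ratio of such a gene describes signals that were not above the detection threshold.

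Ratios on several probes could be compared for 7 members, and in 4 of them (BCL2L11, CCNG1, TNFRSF10B and XPC) all ratios of the authors' deposited table had 1 sign. BAX, DIABLO and POLH had ratios of both signs. The second probe of CCNG1 was below detection in the NT-shRNA line, whereas both POLH probes, at 0.05 and -0.63 in the authors' deposited table, were detected in both lines. The 5 called members had 1 probe each, so no second probe bears on those values.

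**Figure D4:**
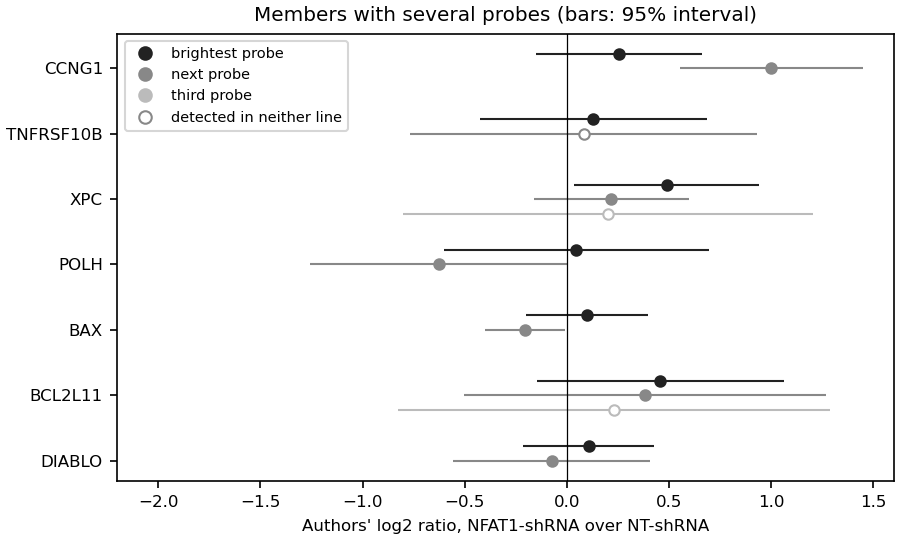
Log2 ratios (NFAT1-shRNA over NT-shRNA) from the authors' deposited table (x axis) for the 7 members with a ratio on more than 1 probe, ordered by brightness within a gene, with bars for the 95% interval from the deposited errors and open points for probes detected in neither line. The intervals of all 7 genes overlap between probes, and the dimmer CCNG1 probe at 1.00, not detected in the NT-shRNA line, is the only one of the dimmer probes whose interval lies above 0.

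The calls depended on how the lines were centred. CDKN1A and BTG2 were called higher on all of 4 scales. Without centring, 8 members were called and all were higher (CDKN1A, BTG2, TRIAP1, GADD45A, XPC, RRM2B, FDXR and EI24), against 22.4% of all genes called higher and 1.54% called lower on that scale (23.9% in all). The centred quotient and the p-values from the errors each called 5 members, with PLK2 in place of TRIAP1, against 9.69% and 8.54% of all genes. The offset of 50 called 7, adding GADD45A and PLK2, against 9.55%, and the mean over probes called 6, adding CCNG1, against 7.94%. The 5 members of the main setting were called with the probe of lowest detection p (7.58% of all genes), with adjustment over all probes (7.36%), among genes detected in both lines (10.6%) and among genes with a mean intensity over 100 (11.3%). Each of these 5 has a single probe, detected in both lines, so these last settings could not change their ratios.

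**Figure D5:**
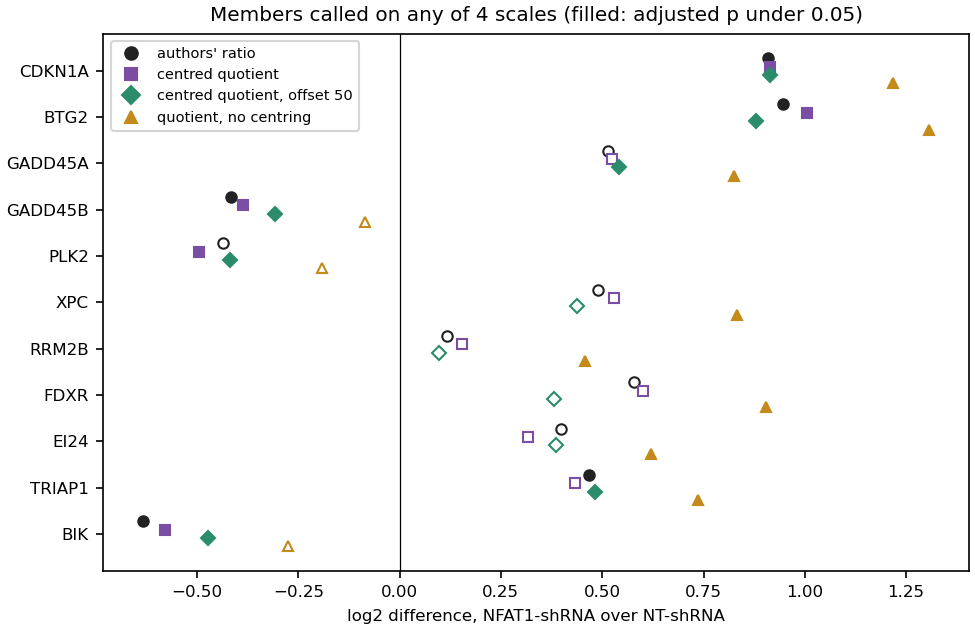
Log2 difference between NFAT1-shRNA and NT-shRNA (x axis) of the members called on any of 4 scales: the authors' ratio, the quotient of the intensities centred on its median, the same after an offset of 50, and the quotient with no centring; filled points have an adjusted p under 0.05. CDKN1A and BTG2 are filled on every scale, and GADD45B and BIK lose the fill without centring, at -0.08 and -0.28.

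Other genes of the same pathways were read from lists that do not overlap the module. Of 33 further p53 pathway genes 23 had a ratio, and 2 fell and 0 rose (8.70% called, against 7.55% of all genes with a ratio). The damage kinase ATM, which activates p53, read 1485 ± 65.3 against 1593 ± 105.9, a ratio of -0.38 in the authors' deposited table (adjusted p 0.0181), while its other probe, detected in neither line, had 0.69. PERP, a p53 target of desmosomes, read 792 ± 49.1 against 959 ± 102.8, a ratio of -0.57 in the authors' deposited table (adjusted p 0.0363), and its other probes were undetected. Both calls were lost on the plain quotient, at -0.10 for ATM and -0.28 for PERP, and with the mean over probes. GDF15, a secreted p53 target, read 6561 ± 465 against 5321 ± 352 on its brighter probe, 0.06 as log2 ratio of the authors' deposited table, and it was not called.

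Of 36 further genes of the apoptosis machinery 26 had a ratio, and 2 rose and 1 fell (11.5% called, against 7.55% of all genes with a ratio). TNFRSF1A, the main receptor for tumour necrosis factor, read 298 ± 25.0 in the line labelled NFAT1-shRNA and 106.9 ± 12.1 in the NT-shRNA line. In log2 units the authors' deposited table had 1.13 (interval 0.74 to 1.53), and the adjusted p was 1.26e-08. CASP2, a caspase that PIDD1 activates, read 1672 ± 103 against 979 ± 76.7, a ratio of 0.48 in the authors' deposited table (adjusted p 0.0393), while its other probe had -0.25. BNIP3, a mitochondrial BCL2 relative that also belongs to the hypoxia response, read 422 ± 35.8 against 855 ± 108.8 on its brighter probe. The authors' deposited table gave ratios of -1.31 (adjusted p 1.43e-06) and, for the dimmer probe, -1.06. With the mean over probes only TNFRSF1A and BNIP3 remained called of the 5 genes of these lists. TNFRSF1A has 1 probe with a ratio, so that setting could not change its ratio. Its other probe was detected in neither line.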

How the data were processed

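RNA of 2 derivatives of the A375SM line was copied into aminoallyl-modified aRNA, which received the Cy5 dye, per the labels' protocols. The deposited table gives per probe and line a detection p-value, a normalized intensity on a linear scale and an error in the same unit, per the file headers, and for the comparison a log2 ratio and a p-value. The sources used here do not give the normalization, the way replicates were combined or the kind of error. Intensities in the series' value table were equal to these within rounding. One protocol names an Illumina chip, which the dye and probe names do not match, so the array's maker is left unnamed.

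Probes naming 1 gene were used, with symbols updated through Entrez numbers (25400 of 25650 matched). The brightest probe represented a gene. In the setting with the mean over probes, the ratios of a gene's probes were averaged. Their p-values were combined there as if the probes were independent, which they are not. Authors' p-values, taken as two-sided, were adjusted by Benjamini-Hochberg over 9516 genes, with a threshold of 0.05. Detection means a detection p-value under 0.01. Intervals of 95% propagate the deposited errors as normal standard errors. For a probe detected in 1 line, the detected value was divided by the undetected one, after removal of the median shift. The dim line's lowest detected signal was the divisor where it was larger (78.3 in NFAT1-shRNA, 60.4 in NT-shRNA). Where the undetected value was the divisor, as for CCNG1, the result is no lower bound. No model across arrays could be fitted. The number of arrays limits the precision. The adjustment and intervals were tested on simulated data with noise drawn from the deposited errors. Such a test checks the arithmetic and cannot show that those errors, or the authors' p-values, are right. Python 3.11.15, NumPy 2.4.6, pandas 2.3.3 and SciPy 1.17.1 were used. Members and lists were chosen with earlier results of these data known. All members are accounted for by name, the lists' other genes where called, and GDF15 was named after its values were seen. Results for some genes are not reported here.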

Additional observations from a re-analysis of the deposited data

How the results depend on the processing

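Besides the main setting, 9 others of scale, centring, offset, probe choice, filter, adjustment and p-value were run. Under the plain quotient with no centring the genes called over the whole table rose from 718 to 2278 (93.5% higher, against 44.4%), the members called from 5 to 8, and those of the other pathway lists from 5 to 12, of which 3 were among the original 5 (ATM and PERP were lost). The same setting moved the class medians to 0.49 for the p53 targets, 0.34 for the BCL2 family, 0.30 for the caspases and apoptosome and 0.46 for all members, where the median gene stood at 0.30. It turned the signs of MDM2 (0.15), SESN1 (0.0278, detected in neither line), MCL1 (0.25), BAK1 (0.23) and CASP9 (0.19). With the offset of 50 the sign of MCL1 turned (0.00898). With the mean over probes those of POLH (-0.29) and BAX (-0.0523) turned, and 2 of the other pathway genes were called. Beyond the centring itself, the cause of these moves was not tested. The remaining counts of calls stayed within 1.5 times. Replicates could not be left out, and no paired analysis was possible because the table holds 1 combined value per line. Signals under about the lowest detected ones limit the comparison of 18 members.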

Other observations

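For 40 member probes with a ratio, the offset between the log2 ratio of the authors' deposited table and the quotient of the intensities was compared with its median over all probes. It departed by more than 0.2 for 4 of them, all dim. The departures were -0.58 for the dimmer TNFRSF10B probe (79.7 and 40.3), -0.45 for the second BCL2L11 probe (80.7 and 36.1), -0.31 for SESN1 (64.4 and 63.1) and -0.24 for the dimmest XPC probe (50.1 and 29.4). None of the 5 called members was among these probes.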
